A study of Mus musculus with 12 samples.

Results

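Mouse preimplantation embryos treated with CX-5461 were compared with untreated embryos, in 4 of the 12 libraries of the series: 2 untreated control libraries (Embryo Control) and 2 treated libraries (Embryo CX-5461), all of strain C57BL/6J. These 4 libraries were taken by their labels, and a gene entered the comparison when it reached at least 1 TPM (a level corrected for gene length and library size) in at least 2 of the 4 libraries, which left 13289 of the 53715 genes listed. The other 8 libraries are embryonic stem (ES) cells derived from the inner cell mass, in pairs that were untreated or received CX-5461, Rapamycin or Rotenone. The study's text describes embryos exposed to the drug from the morula stage and grown to blastocysts, each library holding a small pool of embryos from superovulated young females. The labels give no stage and no concentration for the embryos, and their written protocol is that of the ES cells. The 2 libraries of a group may be separate pools, but no label says that they came from separate litters, so that every error given here measures only the spread between 2 libraries, which may be technical.

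CX-5461 blocks RNA polymerase I, the enzyme that transcribes the 47S precursor of ribosomal RNA in the nucleolus. When that transcription is stopped, free ribosomal proteins bind Mdm2, the ubiquitin ligase that keeps p53 low, and the genes under p53 control are switched on. A blastocyst holds an outer epithelium, the trophectoderm, around a cavity, and an inner cell mass that separates into epiblast and primitive endoderm. The study asked whether ribosomal RNA synthesis serves the embryo as it leaves the 2-cell stage and later. In treated embryos it measured genes of that stage, such as the Dux and Zscan4 genes.

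The labelled material was checked against markers of each cell type. All 17 trophectoderm markers and all 12 epiblast markers reached 1 TPM in at least 2 libraries, as did 8 of 12 primitive endoderm markers. The summed level of the trophectoderm markers was 6100.4 and 6162 TPM in the controls and 5635 and 7621 TPM after CX-5461. Of 12 maternal and early cleavage markers 1 reached 1 TPM in 2 libraries, as did 1 of 6 cumulus cell markers, 0 of 3 oviduct markers and 0 of 8 fibroblast markers, with Tnfaip6, Foxl2, Fshr, Foxj1, Col3a1 and Lum at 0 in all 4. Genes of the X and Y chromosomes that mark sex overlapped between the groups in all 6 cases tested, and every library held both Xist and the Y-linked gene Eif2s3y (105 and 25.5 TPM in the controls and 17.95 and 92.2 TPM after CX-5461).

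The libraries were not equally alike. Control replicate 1 was deposited with a column sum of 639063 TPM where the other 3 sums lay between 999897 and 999914, and each column was therefore scaled to a total of 1000000 before any comparison. On the log2(TPM + 1) scale Pearson's r over the 13289 genes (a description, since genes are not replicates) was 0.977 between the controls and 0.953 between the CX-5461 libraries. CX-5461 replicate 1 stood apart, with r of 0.934 to 0.936 to the controls against 0.969 for CX-5461 replicate 2. It also held the most genes at 1 TPM or more (13703 against 12397 to 13072 in the other 3 libraries), the highest share of mitochondrial ribosomal RNA (2.34% against 1.33% to 1.38%) and the highest share of lincRNA (2.12% against 0.454% to 1.22%). Values after CX-5461 are therefore given for replicate 1 first and replicate 2 second throughout, and list medians for each of them. TPM keeps no record of sequencing depth, so that no counting interval can be given.

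A single gene passed the test in the comparison of all 13289 genes. Gm26712, a transcribed unprocessed pseudogene of 217 exon bases at chr6:57689433-57689649 (mm10, GRCm38), was at 0.255 and 0.266 TPM in the controls and 48.4 and 50.9 TPM after CX-5461. The log2 fold change was 5.33 ± 0.29 (SE, n = 2 against 2; limma with Benjamini-Hochberg adjustment, adjusted p = 0.00208), so that 0.00753% of the genes tested were called higher and 0% (0 genes) lower. Gm26712 lost the call when the filter on low levels was left out (adjusted p = 0.208, beside a range of 6.34e-29 to 0.00601 over the other alternatives that gave a value), and it did not pass that filter when either CX-5461 library was left out. At an unadjusted p under 0.05, limma gave 1151 genes higher and 495 lower, and at an adjusted p under 0.1 it gave 28 and 3. For any single gene an exact permutation test of 2 libraries against 2 cannot give a two-sided p under 0.333.

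The differences below are therefore given as values with the spread of both replicates, and no gene other than Gm26712 is said to have changed. Both CX-5461 libraries lay above both controls for 3672 genes (27.6%) and below both for 2546 genes (19.2%). A gene that reached 1 TPM only in both libraries of a single group lay apart by the filter itself. Among the genes named here this holds, for example, for Gm26712, Tnfrsf18, Gm13056, Fas, Hspa1a, Hyou1, Trib3, Zfp750 and Plagl1 through the treated libraries. It holds for Gm14419, Trmt2a and Gata2 through the controls. With CX-5461 replicate 2 as the only treated library, 5676 genes (42.7%) lay above both controls and 3892 (29.3%) below. A gap of at least 1 log2 unit between the nearest libraries of the groups, called a clear separation here, was seen for 216 genes in the higher direction (1.63%) and 37 in the lower (0.278%). Of the genes clearly apart 85.4% were higher, a share that was 96.1% in the unscaled values and 74.9% after quantile scaling. The counts rested on each library, at 456 and 73 without control replicate 1, 447 and 76 without control replicate 2, 241 and 108 without CX-5461 replicate 1, and 684 and 729 without CX-5461 replicate 2. The median log2 fold change of all genes tested was 0.048, and list medians are given relative to it. Of the 216 genes 150 were protein-coding, 86 had a control mean under 1 TPM, and 31 were listed at 0 in a control library. Of the 37 lower genes 33 were protein-coding and 10 were listed at 0 in a CX-5461 library. The deviation from the control mean was larger in CX-5461 replicate 1 than in replicate 2 for 143 of the 216 and 21 of the 37. The genes that lay clearly higher were short, with a median merged exon length of 1542 bases against 2988 bases for the clearly lower genes and 3412 bases for all genes tested.

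The group of genes with the largest separations in the higher direction was taken from those whose higher group averaged 5 TPM or more. Its members were of mixed kinds. Hba-a1, the alpha subunit of adult haemoglobin, was at 1.82 and 4.76 TPM in the controls and 131 and 54.9 TPM after CX-5461, with a log2 fold change of 4.41 ± 0.50 (limma, adjusted p = 0.0812). Both treated libraries lay above both controls, while the beta-globin markers Hbb-bt and Hbb-bs were at 0 in all 4 libraries and the summed level of the 5 blood markers was 1.82 and 6.81 TPM against 149 and 54.9 TPM. Its near-identical copy Hba-a2 was at 0 and 2.04 TPM in the controls and 17.9 and 0 TPM after CX-5461, and reads may be split between them. Ces2e, a carboxylesterase that hydrolyses esters and lipids, was at 3.43 and 4.68 TPM in the controls and 37.5 and 28.9 TPM after CX-5461. Ms4a10, a membrane protein of the MS4A family, was at 29.4 and 37.5 TPM in the controls and 181 and 166 TPM after CX-5461, the highest treated levels of the group. Tnfrsf18, the receptor GITR known from regulatory T cells, was at 0.185 and 0.948 TPM in the controls and 23.04 and 7.89 TPM after CX-5461. Nkx2-9, a homeodomain transcription factor, was at 1.26 and 2.05 TPM in the controls and 23.7 and 12.7 TPM after CX-5461. For each of these genes the groups were far apart, but the 2 treated libraries also differed between themselves, most for Hba-a1 and Tnfrsf18.

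Other genes of that group were close to 0 in a control. Gm648 was at 0 and 1.28 TPM in the controls and 12.7 and 9.75 TPM after CX-5461. Smtnl1, a smoothelin-like muscle protein, was at 0.876 and 1.06 TPM in the controls and 9.77 and 8.02 TPM after CX-5461, and Tmsb15b2, a beta-thymosin that binds actin monomers, was at 1 and 0.556 TPM in the controls and 8.05 and 11.4 TPM after CX-5461. The lincRNA Gm13056 reached 7.36 and 5.48 TPM against 0 and 0.201 TPM. The pseudogene Hsp25-ps1, from 7.21 and 6.66 TPM to 93.6 and 37.9 TPM, is a processed copy of Hspb1. Reads that match both may be missing, and the level of Hsp25-ps1 is uncertain for that reason.

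Several of the genes that lay lowest were listed at 0 after treatment. Gm14419, a zinc finger gene on chromosome 2, was at 26.03 and 49.5 TPM in the controls and 0.9 and 0 TPM after CX-5461, with a log2 fold change of -4.74 ± 0.44 (limma, adjusted p = 0.0548). Trmt2a, a tRNA methyltransferase, was at 8.02 and 6.43 TPM in the controls and 0 and 0 TPM after CX-5461. Pcmt1, which repairs damaged aspartyl residues in proteins, was at 78.2 and 75.6 TPM in the controls and 11.4 and 0 TPM after CX-5461. A listed 0 in a table without counts can be a failed estimate, and Trmt2a and Pcmt1 were not among the genes tested in the ES cells. Gm4724, a relative of Gm14419, and Nanp, a phosphatase of sialic acid synthesis, were each listed at 0 in CX-5461 replicate 2 but not in replicate 1.

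Genes present in all 4 libraries give a firmer picture of the lower direction. Tdgf1, the Nodal co-receptor Cripto of the epiblast, was at 114 and 95.7 TPM in the controls and 14.1 and 23.8 TPM after CX-5461, with a log2 fold change of -2.44 ± 0.33 (limma, adjusted p = 0.0812). Xbp1, the transcription factor of the unfolded protein response, was at 74.1 and 76.1 TPM in the controls and 23.1 and 28.2 TPM after CX-5461. BC053393, an abundant transcript of these embryos, was at 664 and 707 TPM in the controls and 188 and 252 TPM after CX-5461. The highest treated value was 24.9% of the lowest control value for Tdgf1, 38.0% for Xbp1 and 38.0% for BC053393. Ephx2, the soluble epoxide hydrolase, was at 10.5 and 7.89 TPM in the controls and 1.8 and 2.08 TPM after CX-5461. Gulp1, an adaptor for the engulfment of dead cells, was at 8.89 and 9.97 TPM in the controls and 2.49 and 2.22 TPM after CX-5461. The mitochondrial methionine tRNA gene mt-Tm was at 1578 and 2056 TPM in the controls and 696 and 487 TPM after CX-5461, below both controls in each treated library.

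**Figure D1:**
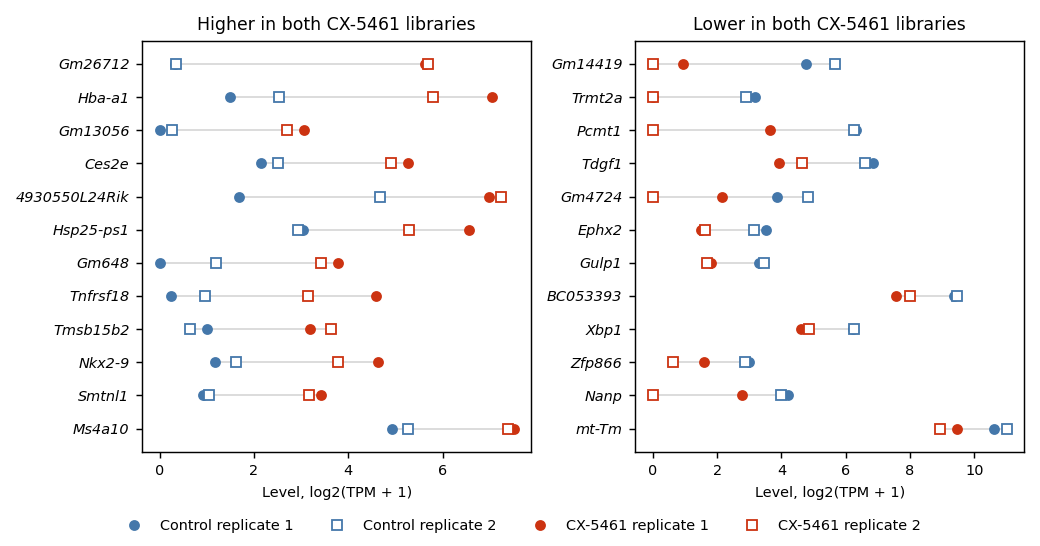
Levels of the 12 genes with the largest separation in each direction, on a log2(TPM + 1) axis, with a point for each library (filled circles replicate 1, open squares replicate 2; blue controls, red CX-5461). The 2 groups do not overlap for any gene shown, the gap is widest for Gm26712 and Gm14419, and 5 genes on the right, Gm14419, Trmt2a, Pcmt1, Gm4724 and Nanp, have a treated library at 0.

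The RNA polymerase I list holds the enzyme's subunits and its initiation and termination factors, and 9 of its 23 members tested lay above both controls and 2 below (39.1% and 8.7%, beside 27.6% and 19.2% of all genes), 12 and 4 with replicate 2 alone (52.2% and 17.4%, beside 42.7% and 29.3% of all genes). The median was 0.18 log2 relative to all genes, with none called and none clearly separated. Polr1a, the largest catalytic subunit, was at 5.63 and 5.82 TPM in the controls and 4.42 and 6.53 TPM after CX-5461. Polr1b, the second subunit, was at 25.6 and 23.7 TPM in the controls and 23.7 and 23.9 TPM after CX-5461. Rrn3, the factor that brings the enzyme to the promoter, was at 52.03 and 58.7 TPM in the controls and 44.5 and 65.6 TPM after CX-5461, and Ubtf, which binds ribosomal DNA and bends it, at 20.3 and 13.1 TPM in the controls and 30.1 and 18.6 TPM after CX-5461. In each of these 4 genes the groups overlapped. The 4 members with the largest gaps were small shared subunits or assembly partners, led by Polr2f, a subunit of all 3 nuclear polymerases (148 and 163 TPM in the controls and 329 and 195 TPM after CX-5461).

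The transcripts of nucleolar proteins overlapped between the groups for 16 of 29 members, with 7 above both controls and 6 below (24.1% and 20.7%, beside 27.6% and 19.2% of all genes). Npm1, the abundant chaperone of the nucleolar outer layer, was at 1545 and 1988 TPM in the controls and 1335 and 1528 TPM after CX-5461. Ncl, nucleolin, was at 107 and 109.6 TPM in the controls and 143 and 107 TPM after CX-5461, and Fbl, the methyltransferase fibrillarin, at 49.2 and 39.1 TPM in the controls and 80.4 and 51.3 TPM after CX-5461. Only for Fbl did the 3 lie higher in both treated libraries, by a gap of 0.06 log2. Nhp2, a box H/ACA snoRNP protein, was at 586 and 696 TPM in the controls and 734 and 779.8 TPM after CX-5461. Dkc1, the pseudouridine synthase of the same particle, lay lower (188 and 238 TPM in the controls and 114 and 144 TPM after CX-5461). Factors that assemble ribosomal subunits lay above both controls in 11 and below in 18 of 81 cases (13.6% and 22.2%, beside 27.6% and 19.2% of all genes), led by Dimt1, a dimethylase of 18S ribosomal RNA, at 52.1 and 46.8 TPM in the controls and 14.5 and 32.5 TPM after CX-5461. The list median relative to all genes was -0.39 log2 in replicate 1 and -0.02 in replicate 2. With replicate 2 alone 36 members lay above both controls and 21 below (44.4% and 25.9%, beside 42.7% and 29.3% of all genes). Heatr1, which acts in the earliest steps of pre-ribosomal RNA processing, was at 4.41 and 4.42 TPM in the controls and 8.66 and 6.68 TPM after CX-5461.

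Ribosomal protein genes split between the treated libraries. Of 81 tested, 28 lay above both controls and 9 below (34.6% and 11.1%, beside 27.6% and 19.2% of all genes), and their median relative to all genes was 0.44 log2 in CX-5461 replicate 1 and -0.08 in replicate 2, so that the sign depended on the library. With replicate 2 alone, 31 lay above both controls and 31 below (38.3% and 38.3%, beside 42.7% and 29.3% of all genes). Rps29, the small zinc-binding protein of the small subunit, was at 2398 and 2316 TPM in the controls and 6395 and 3177 TPM after CX-5461. Rps27l, a p53-responsive copy of Rps27, was at 2281 and 2637 TPM in the controls and 3899 and 3109 TPM after CX-5461.

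Reads of nuclear ribosomal RNA were examined at a ribosomal DNA-like segment on chromosome 17, where 4 annotated genes lie between positions 39843013 and 39848827 (mm10, GRCm38) and overlap in part. The rRNA gene CT010467.1 was at 2211 and 3967 TPM in the controls and 6158 and 3416 TPM after CX-5461. AY036118, which lies within it, was at 6593 and 0.492 TPM in the controls and 14703 and 7234 TPM after CX-5461. Reads of such overlapping genes can be assigned to either, and the library that lists AY036118 near 0 is a control. Summed over the 4 genes, the level was 8831 and 3987 TPM in the controls and 20975 and 10685 TPM after CX-5461. The treated sums lay above the control sums, and the controls themselves differed 2.21-fold. How far these values follow the mature ribosomal RNA left after selection, and not transcription by RNA polymerase I, was not tested.

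The 4 marker genes of the 2-cell stage, Zscan4d, Duxf3, Gm12794 and Gm4340, were under 1 TPM in all 4 libraries. Zscan4d was listed at 0 in each. Duxf3, the Dux gene that starts the 2-cell programme, was listed at 0 in both controls and in CX-5461 replicate 2 and at 0.165 TPM in replicate 1. Gm12794 was at 0.457 and 0.573 TPM in the controls and 0.916 and 0.318 TPM after CX-5461, and Gm4340, an alpha-takusan family gene, was at 0.525 and 0.0422 TPM in the controls and 0.576 and 0.0982 TPM after CX-5461. Dux and Zscan4 genes exist in near-identical copies, which makes the level of a single copy uncertain. For Gm12794 and Gm4340 the groups overlapped. In the ES cells of the same series, Zscan4d, Gm12794 and Gm4340 were higher after CX-5461 by 2.23 ± 0.16, 4.34 ± 0.30 and 1.41 ± 0.25 log2 (SE, limma, all with adjusted p under 0.05). The tables were normalized separately, so that these values stand side by side without a test of the difference.

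Among the wider lists of such genes, 23 of 34 single-copy and 21 of 55 multicopy symbols passed the level filter. In the single-copy list 6 lay above both controls and 4 below (26.1% and 17.4%, beside 27.6% and 19.2% of all genes), and in the multicopy list 3 and 3 (14.3% and 14.3%), with medians of -0.11 and -0.10 log2 relative to all genes. Members of the multicopy list share sequence with near-identical copies and are uncertain. Arg2, the mitochondrial arginase, was at 5.92 and 8.49 TPM in the controls and 17.4 and 52.6 TPM after CX-5461. Zfp750, an epidermal zinc finger factor, was at 0.273 and 0.123 TPM in the controls and 1.57 and 1.09 TPM after CX-5461, and Rpl39l, a ribosomal protein paralog, at 356 and 422 TPM in the controls and 829 and 667 TPM after CX-5461. Those 3 had the largest separations of the single-copy list, and Zfp750 passed the filter only through the treated libraries. The abundant Pramel6 and Pramel7 overlapped between the groups (728 and 961 TPM in the controls and 545 and 805 TPM after CX-5461 for Pramel6).

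Chromatin repressors of the 2-cell programme, a list of 36 genes all of which were tested, lay above both controls in 12 cases and below in 7 (33.3% and 19.4%, beside 27.6% and 19.2% of all genes). Trim28, the corepressor of zinc finger proteins, was at 100.5 and 79.3 TPM in the controls and 85.95 and 79.5 TPM after CX-5461. Sumo2, the most abundant member, was at 493 and 317 TPM in the controls and 246 and 538 TPM after CX-5461, and Hnrnpk, the next, at 382 and 396 TPM in the controls and 219 and 361 TPM after CX-5461. Sumo2 varied more between replicates than between the group means.

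The list of maternal and oocyte genes is not confined to the egg, since Dppa3 was also tested in the ES cells. Of its 57 members 15 passed the filter. Of these, 9 lay above both controls and 1 below (60.0% and 6.67%, beside 27.6% and 19.2% of all genes), with medians of 0.50 and 0.44 log2 relative to all genes in replicates 1 and 2. Over the group means the median was 0.55 log2, and 0.29 when the filter on low levels was left out. Oas1c, an oligoadenylate synthetase family gene, was at 1.62 and 2.17 TPM in the controls and 6.86 and 6.77 TPM after CX-5461. Uchl1, a deubiquitinase of the egg, was at 18.6 and 10.4 TPM in the controls and 36.8 and 30.7 TPM after CX-5461. Dppa3, which protects the maternal genome from demethylation, was by far the most abundant, at 5613 and 7607 TPM in the controls and 10817 and 10823 TPM after CX-5461. Tcl1, an Akt co-activator of egg and ES cells, was the exception, at 15.5 and 14.7 TPM in the controls and 1.15 and 6.82 TPM after CX-5461.

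Genes under p53 control lay above both controls more often than below. In the list of arrest and feedback targets, 19 of 40 members tested (47.5%, beside 27.6% of all genes) lay above both controls and 6 (15.0%, beside 19.2%) below, and the median relative to all genes was 0.38 log2 in replicate 1 and 0.28 in replicate 2. With replicate 2 alone, 25 lay above both controls and 8 below (62.5% and 20.0%, beside 42.7% and 29.3% of all genes). None of the 40 passed the test.

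Cdkn1a, the inhibitor p21 that stops the cell cycle, was at 38.4 and 47.2 TPM in the controls and 175 and 114 TPM after CX-5461, with a log2 fold change of 1.71 ± 0.31 (limma, adjusted p = 0.147). Btg2, an antiproliferative cofactor of mRNA decay, was at 21.9 and 34.7 TPM in the controls and 104 and 66.9 TPM after CX-5461. Ak1, an adenylate kinase, was at 5.44 and 8.25 TPM in the controls and 21.4 and 16.3 TPM after CX-5461. The lowest treated value was 2.41 times the highest control value for Cdkn1a, 1.93 times for Btg2 and 1.97 times for Ak1. Dcxr, a carbonyl reductase, had the tightest replicates, at 112 and 115 TPM in the controls and 225 and 214 TPM after CX-5461. Eda2r, a death receptor of the TNF family, was at 13.1 and 27.1 TPM in the controls and 69.4 and 42.7 TPM after CX-5461, and Zmat3, a p53-regulated RNA-binding protein, at 1.75 and 2.28 TPM in the controls and 5.69 and 4.33 TPM after CX-5461.

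The regulators themselves differed less. Mdm2 was at 29.00 and 38.9 TPM in the controls and 43.8 and 52.9 TPM after CX-5461, a gap of 0.16 log2 between the nearest libraries. Trp53, whose protein is controlled mainly by its stability, was at 58.7 and 55.9 TPM in the controls and 29.8 and 52.2 TPM after CX-5461. Phlda3, an Akt inhibitor, was at 25.9 and 24.02 TPM in the controls and 39.5 and 49.8 TPM after CX-5461, and Sesn2, a brake on mTORC1, at 2.96 and 2.82 TPM in the controls and 5.26 and 5.26 TPM after CX-5461. In the other direction Gls2, the mitochondrial glutaminase, was at 7.19 and 5.73 TPM in the controls and 2.13 and 2.26 TPM after CX-5461 and Ddb2, which finds ultraviolet damage, was at 12.5 and 12.5 TPM in the controls and 6.8 and 8.73 TPM after CX-5461. The well known target Ccng1 overlapped between the groups.

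Genes of cell death, 33 tested, lay above both controls in 11 cases and below in 3 (33.3% and 9.09%, beside 27.6% and 19.2% of all genes), with a median of 0.07 log2 relative to all genes that turned to -0.12 without CX-5461 replicate 2. Fas, the death receptor, was at 0.503 and 0.00636 TPM in the controls and 2.83 and 1.32 TPM after CX-5461. Pidd1, which activates caspase-2, was at 2.63 and 3.47 TPM in the controls and 8.01 and 5.38 TPM after CX-5461. Bax, which opens the mitochondrial outer membrane, was at 189 and 153 TPM in the controls and 236 and 237 TPM after CX-5461. Each of these 3 was higher in both treated libraries, while Perp, Siva1 and Mcl1 overlapped between the groups. Fas passed the filter only through the treated libraries.

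Immediate early genes are transcribed within minutes of a growth factor or stress signal. Of 25 tested, 16 lay above both controls and 2 below (64% and 8%, beside 27.6% and 19.2% of all genes), with medians of 0.68 and 0.34 log2 relative to all genes in replicates 1 and 2. With replicate 2 alone the counts were 17 and 3 (68% and 12%, beside 42.7% and 29.3% of all genes). Over the group means the median was 0.54 log2, and it was lower when the filter on low levels was left out. Over the alternatives it lay between 0.36 and 0.73 log2. Jun, a subunit of the transcription factor AP-1, was at 1.2 and 1.11 TPM in the controls and 6.04 and 4.07 TPM after CX-5461, and its partner Fos was at 1.34 and 3.06 TPM in the controls and 7.54 and 7.05 TPM after CX-5461. Dusp4, a phosphatase of nuclear ERK, was at 7.41 and 7.23 TPM in the controls and 18.5 and 17.04 TPM after CX-5461. These 3 were at single TPM values in the controls, where a fold change on the log2(TPM + 1) scale understates the change. Btg1, a relative of Btg2, was at 16.9 and 19.04 TPM in the controls and 30.5 and 33.8 TPM after CX-5461. Dusp6, the cytoplasmic ERK phosphatase, went the other way, at 14.3 and 11.7 TPM in the controls and 6.39 and 9.46 TPM after CX-5461. Btg2 stands in both this list and the p53 list.

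The heat shock list did not point 1 way. Of 29 tested, 6 lay above both controls and 10 below (20.7% and 34.5%, beside 27.6% and 19.2% of all genes). Small heat shock proteins were among the highest. Hspb1 (HSP25), which holds unfolded proteins and binds actin, was at 141 and 137 TPM in the controls and 965 and 522 TPM after CX-5461. Its log2 fold change was 2.34 ± 0.34 (limma, adjusted p = 0.0972). Cryab, alpha-B-crystallin, was at 154 and 128 TPM in the controls and 332 and 379 TPM after CX-5461. Hspa1a, the stress-inducible HSP70, was at 0.0365 and 0 TPM in the controls and 1.01 and 1.3 TPM after CX-5461, though reads that also match its near-identical neighbour Hspa1b may be missing. In all 3 the groups were apart by 0.95 log2 or more, and Hspa1a passed the filter only through the treated libraries. Some of the other members lay lower or overlapped. Hsp90aa1, a cytosolic HSP90, was at 6025 and 4369.7 TPM in the controls and 4208 and 3249.5 TPM after CX-5461. Hspa9, the mitochondrial HSP70, was at 216 and 218 TPM in the controls and 105 and 178 TPM after CX-5461. Hspa8, Hsph1 and Dnajb1 overlapped between the groups.

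The promoters of Hspb1 and Hspa1a are shown because both carry paired heat shock units, the sites where heat shock factor binds. Each window comes from the 300 bases around a RefSeq gene start (250 before and 50 after, GRCm38.p6), reads 5′ to 3′ on the gene's strand, and has the searched motif GAANNTTC, which reads the same on both strands, in capitals.
Hspb1 (chr5:135887786-135887825, + strand): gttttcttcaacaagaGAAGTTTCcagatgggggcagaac
Hspb1 (chr5:135887806-135887845, + strand): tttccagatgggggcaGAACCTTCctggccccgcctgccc
Hspa1a (chr17:34972237-34972276, - strand): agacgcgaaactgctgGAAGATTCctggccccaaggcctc
The motif is common: 2582 of 32851 promoters (7.86%) held it. The 630 genes with it that were tested had a median log2 fold change of 0.00. Of them 166 lay above both controls and 143 below, beside 27.6% and 19.2% of all genes. Within the heat shock list 12 of the 24 genes with a promoter in the table held it. Of the 11 tested 3 lay above both controls and 2 below, near the shares of all genes. The 2 Hspb1 windows overlap by 20 bases.

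The unfolded protein response senses misfolded proteins in the endoplasmic reticulum and raises chaperones through the factors Xbp1, Atf6 and Atf4. Of 30 tested, 16 lay below both controls and 6 above (53.3% and 20.0%, beside 19.2% and 27.6% of all genes), with medians of -0.47 and -0.18 log2 relative to all genes in replicates 1 and 2. With replicate 2 alone the counts were 16 and 8 (53.3% and 26.7%, beside 29.3% and 42.7% of all genes). None passed the test. Xbp1 had the widest gap (-1.52 ± 0.28 log2, limma, adjusted p = 0.136), at the levels given above.

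Herpud1, a membrane protein of the degradation of misfolded proteins, was at 5.26 and 6.05 TPM in the controls and 2.78 and 3.03 TPM after CX-5461. Hspa5, the chaperone BiP, was at 297 and 377 TPM in the controls and 82.8 and 256 TPM after CX-5461, and its difference lay mostly in replicate 1. Pdia6 and Pdia4, which form disulfide bonds, were at 232 and 279 TPM in the controls and 106 and 165 TPM after CX-5461 and at 96.7 and 109 TPM in the controls and 39.5 and 73.8 TPM after CX-5461. Hyou1, a chaperone of the same compartment, lay higher at low levels (0.61 and 0.627 TPM in the controls and 1.54 and 1.47 TPM after CX-5461), as did Dnajb9 (38.05 and 42.4 TPM in the controls and 50.4 and 51.5 TPM after CX-5461).

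Promoters of this list are shown because chaperone genes of the endoplasmic reticulum share the ER stress element, to which Atf6 and Xbp1 bind together with NF-Y. The searched letters were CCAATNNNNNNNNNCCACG on either strand, in capitals below, in the same RefSeq windows.
Hspa5 (chr2:34772013-34772055, + strand): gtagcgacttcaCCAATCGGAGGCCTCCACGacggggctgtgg
Hsp90b1 (chr10:86705626-86705668, - strand): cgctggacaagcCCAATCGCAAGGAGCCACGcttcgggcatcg
Hsp90b1 (chr10:86705521-86705563, - strand): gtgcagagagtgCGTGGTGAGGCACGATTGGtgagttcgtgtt
Pdia6 (chr12:17266479-17266521, + strand): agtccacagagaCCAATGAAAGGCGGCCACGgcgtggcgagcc
Creld2 (chr15:88819508-88819550, + strand): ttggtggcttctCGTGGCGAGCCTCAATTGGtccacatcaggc
Dnajc3 (chr14:118937815-118937857, + strand): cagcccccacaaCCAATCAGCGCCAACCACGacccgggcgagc
Canx (chr11:50325788-50325830, - strand): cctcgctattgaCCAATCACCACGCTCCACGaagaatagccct
Calr (chr8:84847063-84847105, - strand): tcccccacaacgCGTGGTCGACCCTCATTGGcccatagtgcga
Syvn1 (chr19:6046520-6046562, + strand): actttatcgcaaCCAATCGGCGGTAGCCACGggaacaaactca
The element was rare, in 39 of 32851 promoters (0.119%), and 9 of the 25 list genes with a promoter in the table held it. Of the 8 of them that were tested, 7 lay below both controls and 0 above, and Syvn1, a ubiquitin ligase of the pathway, overlapped. Of the whole list 53.3% lay below and 20.0% above, and of all genes 19.2% and 27.6%. The 9 tested genes outside the list that carried the element lay below in 1 case and above in 4. Creld2 was at 124 and 121 TPM in the controls and 55.1 and 86.8 TPM after CX-5461, Hsp90b1 at 246 and 294 TPM in the controls and 194 and 178 TPM after CX-5461 and Dnajc3 at 18.9 and 21.3 TPM in the controls and 15.5 and 15.9 TPM after CX-5461. Canx was at 227 and 264 TPM in the controls and 144 and 199 TPM after CX-5461 and Calr, the other lectin chaperone, at 268 and 239 TPM in the controls and 224 and 194 TPM after CX-5461. A match of letters is not a measured binding site.

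The integrated stress response runs through Atf4. Of 35 genes tested, 15 lay above both controls and 5 below (42.9% and 14.3%, beside 27.6% and 19.2% of all genes). The median relative to all genes was -0.07 log2 over the group means, 0.03 in replicate 1 and 0.10 in replicate 2, and so differed in sign between these measures. Asns, asparagine synthetase, was at 92.3 and 78.8 TPM in the controls and 19.4 and 44.1 TPM after CX-5461. Trib3, a feedback inhibitor of Atf4, was at 0.843 and 0.996 TPM in the controls and 2.48 and 2.42 TPM after CX-5461. Atf4 itself overlapped between the groups.

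**Figure D2:**
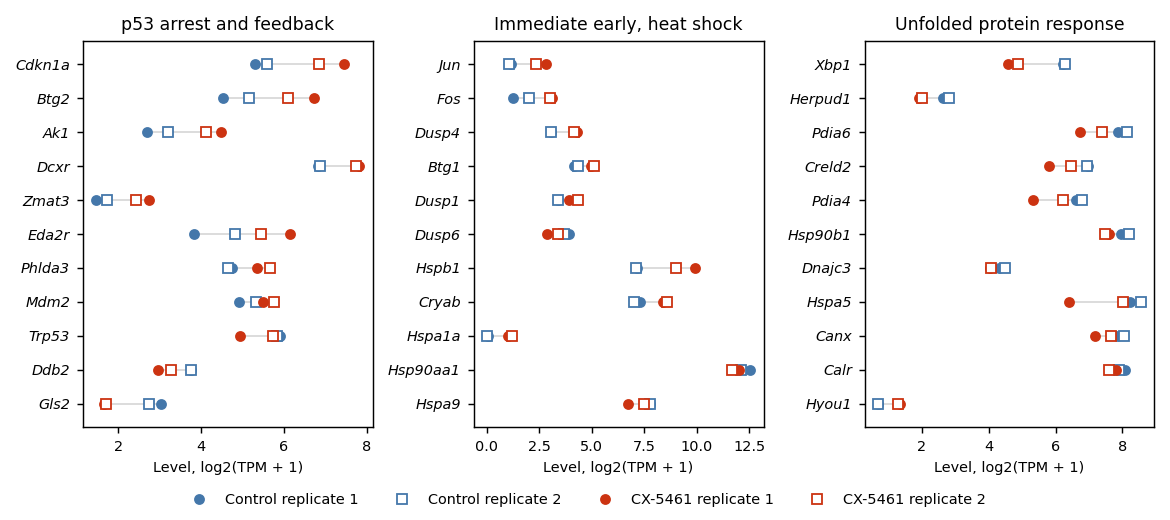
Levels of 33 genes of the p53, immediate early, heat shock and unfolded protein response lists on log2(TPM + 1) axes, with a point for each library (filled circles replicate 1, open squares replicate 2; blue controls, red CX-5461). Cdkn1a, Btg2, Jun, Hspb1 and Cryab lie to the right in both treated libraries, and Xbp1 lies to the left in both, while Hspa5 in CX-5461 replicate 1 (82.8 TPM) lies far from its other 3 values.

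Epiblast genes lay below both controls more often than above. In the epiblast and pluripotency list 18 of 38 members tested lay below both controls, 6 above and 14 overlapped (47.4% and 15.8%, beside 19.2% and 27.6% of all genes), with medians of -0.42 and -0.33 log2 relative to all genes in replicates 1 and 2. With replicate 2 alone 22 lay below and 10 above (57.9% and 26.3%, beside 29.3% and 42.7% of all genes). The summed level of all 50 genes of that list overlapped between the groups, at 10535 and 9868 TPM in the controls and 11332 and 10090 TPM after CX-5461. The summed level of the 12 epiblast markers was 1335 and 1457 TPM in the controls and 848 and 959 TPM after CX-5461, and 9 of the 12 lay below both controls and 0 above. Fewer epiblast cells and less RNA of these genes in each cell cannot be told apart in pools of whole embryos.

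Tdgf1, given above, had the largest difference. Nanog, a core factor of naive pluripotency, was at 156 and 204 TPM in the controls and 86.1 and 122 TPM after CX-5461. Pou5f1 (Oct4), needed for the inner cell mass, was at 77.2 and 52.6 TPM in the controls and 38.1 and 44.3 TPM after CX-5461, and Sox2, its partner, was at 5.08 and 4.86 TPM in the controls and 3.68 and 1.62 TPM after CX-5461. Otx2, a factor of the later epiblast, was at 7.41 and 3.85 TPM in the controls and 0.98 and 1.93 TPM after CX-5461. In these 4 every treated value was under every control value, by gaps of 0.73 log2 for Otx2 and 0.24 to 0.36 log2 for the others. Upp1, uridine phosphorylase, was at 178 and 112 TPM in the controls and 47.03 and 53.1 TPM after CX-5461 and Etv5, a transcription factor downstream of FGF and ERK, at 10.3 and 6.05 TPM in the controls and 2.98 and 2.91 TPM after CX-5461. Prdm14, a repressor that guards naive pluripotency, was at 5.24 and 2.26 TPM in the controls and 0.728 and 1.06 TPM after CX-5461, and Fgf4, the epiblast signal to the other lineages, at 3.17 and 1.83 TPM in the controls and 1.62 and 1.06 TPM after CX-5461.

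Part of the list did not follow. Sox15, a Sox factor that can bind beside Oct4, was at 46.1 and 44.2 TPM in the controls and 100.05 and 76.5 TPM after CX-5461. Esrrb, Klf4 and Nr5a2 overlapped between the groups. Tfcp2l1 lay lower by a gap of only 0.02 log2 (90.5 and 95.6 TPM in the controls and 82.3 and 89.02 TPM after CX-5461).

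Of 27 trophectoderm factors, 6 lay above both controls and 5 below (22.2% and 18.5%, beside 27.6% and 19.2% of all genes). Cdx2, which specifies the lineage, was at 9.19 and 6.24 TPM in the controls and 6.91 and 6.31 TPM after CX-5461, and Gata3, its parallel factor, was at 107 and 93.4 TPM in the controls and 106 and 80.9 TPM after CX-5461. Both overlapped between the groups. Gata2, a later trophoblast factor, was at 2.01 and 1.56 TPM in the controls and 0.391 and 0.415 TPM after CX-5461, and Cited2, a cofactor needed in the placenta, at 3.07 and 4.24 TPM in the controls and 10.9 and 8.6 TPM after CX-5461. Satb1, a chromatin organizer, was at 14.7 and 11.7 TPM in the controls and 24.8 and 22.3 TPM after CX-5461.

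The epithelial genes of the trophectoderm (adhesion, keratins, pumps and channels) lay above both controls in 16 of 50 cases and below in 13 (32% and 26%, beside 27.6% and 19.2% of all genes). Krt8, the most abundant keratin of the list, was at 1950.5 and 1699 TPM in the controls and 1403 and 2204 TPM after CX-5461 and overlapped. Jup, plakoglobin of the desmosome, was at 21.9 and 13.3 TPM in the controls and 47.5 and 37.6 TPM after CX-5461. Gjb5, a gap junction protein, was at 85.9 and 83.8 TPM in the controls and 36.5 and 52.3 TPM after CX-5461, and Dppa1 was at 1125 and 1033 TPM in the controls and 585 and 676 TPM after CX-5461. Krt7 (8.41 and 7.22 TPM in the controls and 12.9 and 18.7 TPM after CX-5461) and Cldn6 (84.1 and 87.1 TPM in the controls and 126 and 227 TPM after CX-5461), a keratin and a tight junction protein, were higher in both treated libraries, so that members of the same epithelium differed in direction.

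Primitive endoderm genes, 23 tested, lay above both controls in 9 cases and below in 6 (39.1% and 26.1%, beside 27.6% and 19.2% of all genes). The early factor Gata6 was at 61.7 and 51.7 TPM in the controls and 122 and 62.5 TPM after CX-5461, and Pdgfra, the receptor that marks the lineage, was at 8.08 and 7.94 TPM in the controls and 4.9 and 3.97 TPM after CX-5461. Sox17 overlapped (1.84 and 0.609 TPM in the controls and 0.193 and 1.01 TPM after CX-5461), and Gata4, which follows it, did not reach 1 TPM in any library. The members above both controls included basement membrane genes. Nid2, nidogen-2, was at 12.4 and 13.1 TPM in the controls and 33.7 and 23.7 TPM after CX-5461, Lamc1, laminin gamma-1, was at 8.96 and 12.3 TPM in the controls and 25.2 and 18.8 TPM after CX-5461, and Lamb1, laminin beta-1, was at 9.01 and 6.09 TPM in the controls and 16.6 and 11.8 TPM after CX-5461. The type IV collagens Col4a1 and Col4a2 overlapped.

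**Figure D3:**
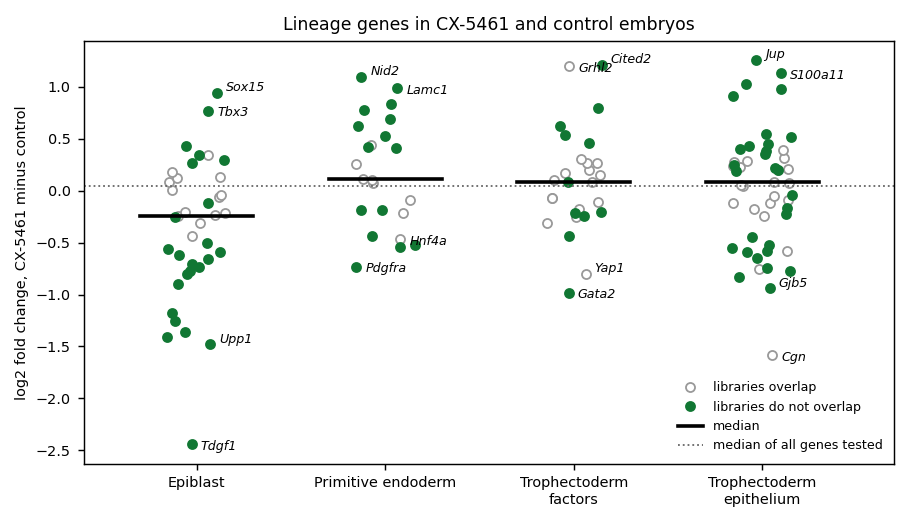
Log2 fold changes (CX-5461 minus control) of 138 entries of the lineage lists, a point per gene, filled where the libraries of the 2 groups do not overlap; black bars are list medians and the dotted line the median of all genes tested (0.048). The epiblast median lies below the line and the other 3 close to it, and Tdgf1 is lowest at -2.44.

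Imprinted genes, expressed from a single parental copy, lay above both controls in 8 of 27 cases and below in 2 (29.6% and 7.41%, beside 27.6% and 19.2% of all genes). The share above is near that of all genes. There were 3 clear separations, all in the higher direction, a kind seen for 1.63% of all genes. These 3 lie in the domain on distal chromosome 7 around Kcnq1ot1, a long noncoding RNA that silences its neighbours on the paternal chromosome. Phlda2, which limits placental growth, was at 3.01 and 0.365 TPM in the controls and 15.2 and 37.99 TPM after CX-5461, with a log2 fold change of 3.43 ± 0.59 (limma, adjusted p = 0.125). Cd81, a tetraspanin, was at 13.7 and 23.7 TPM in the controls and 83.02 and 89.1 TPM after CX-5461, and Cdkn1c, the cell cycle inhibitor p57, was at 1.83 and 1.5 TPM in the controls and 7.17 and 5.19 TPM after CX-5461. All 3 treated pairs lay above both controls, though the controls differed between themselves for Phlda2 (3.01 and 0.365 TPM).

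The neighbours of these genes, looked up after their values were seen, did not all follow. Phlda2 lies at chr7:143501545-143503150, Cdkn1c at chr7:143458339-143461050 and Cd81 at chr7:143052739-143067934 (GENCODE M21, GRCm38). Slc22a18, a transporter between Cdkn1c and Phlda2, was at 3.04 and 1.6 TPM in the controls and 7.27 and 6 TPM after CX-5461. Nap1l4, a histone chaperone beside Phlda2, overlapped between the groups (61.03 and 54.8 TPM in the controls and 46.1 and 59.1 TPM after CX-5461), as did Cars, and Tssc4, beside Cd81, lay lower (6.85 and 6.91 TPM in the controls and 3.91 and 6.28 TPM after CX-5461). Farther out, Osbpl5 lay higher (1.68 and 2.2 TPM in the controls and 4.11 and 3.35 TPM after CX-5461). Nadsyn1 lay lower (3.57 and 2.7 TPM in the controls and 1.09 and 1.23 TPM after CX-5461). Away from this domain, Plagl1, a zinc finger factor of fetal growth, was at 0.676 and 0.428 TPM in the controls and 3.4 and 2.31 TPM after CX-5461. Plagl1 passed the filter only through the treated libraries. Peg3, a paternally expressed zinc finger gene, was at 1.27 and 1.44 TPM in the controls and 3.55 and 2.84 TPM after CX-5461, and Grb10, a growth factor adaptor, at 1.51 and 0.961 TPM in the controls and 5.62 and 2.23 TPM after CX-5461. Igf2r, Gnas and Snrpn overlapped.

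**Figure D4:**
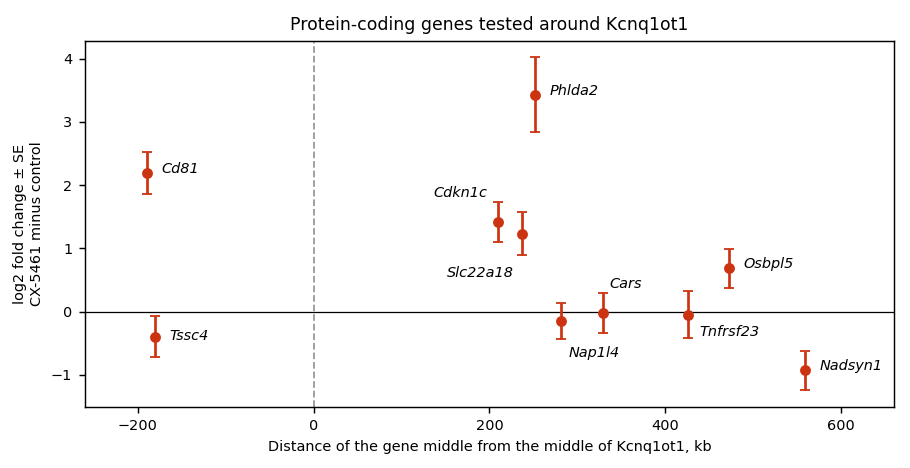
Log2 fold changes (points) with their SE from limma (bars) of the 10 protein-coding genes tested around Kcnq1ot1, against the distance of each gene's middle from the middle of Kcnq1ot1 in kb. Phlda2 (3.43), Cd81 (2.19), Cdkn1c (1.42) and Slc22a18 (1.23) lie above 1, and Nap1l4, Cars, Tnfrsf23 and Tssc4 lie near or below 0. Osbpl5 lies at 0.68, and Nadsyn1 is lowest at -0.93.

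The mitochondrial genome encodes core subunits of the respiratory chain. Of the 13 protein-coding genes of the mitochondrial genome 0 lay above both controls and 10 below (0% and 76.9%, beside 27.6% and 19.2% of all genes), with medians of -0.41 and -0.49 log2 relative to all genes in replicates 1 and 2. Together they took 10.2% and 10.8% of each control library and 8.11% and 7.83% of each treated library. The treated shares lay under both controls, and replicate 2 was no less apart than replicate 1. mt-Nd1, a subunit of complex I, was at 17524 and 17414 TPM in the controls and 11585 and 12023 TPM after CX-5461, and mt-Co1, of cytochrome c oxidase, was at 14451 and 17168 TPM in the controls and 7962 and 11812 TPM after CX-5461. All 13 genes are cut from the same few long transcripts and are not independent measurements.

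Nuclear genes of oxidative phosphorylation lay above both controls in 36 of 75 cases and below in 18 (48% and 24%, beside 27.6% and 19.2% of all genes), and the median relative to all genes was 0.32 log2 in replicate 1 and 0.01 in replicate 2. Ndufa12, an accessory subunit of complex I, was at 138 and 137 TPM in the controls and 334 and 255 TPM after CX-5461. Cox4i1, of cytochrome c oxidase, was at 1597 and 1425 TPM in the controls and 2726 and 2524 TPM after CX-5461. Ndufv2, a core subunit of complex I, lay lower at 385 and 332 TPM in the controls and 214 and 234 TPM after CX-5461, and so did Atp5b, the catalytic subunit of ATP synthase (1646 and 1653 TPM in the controls and 589 and 1348 TPM after CX-5461). The 36 genes above had a median merged exon length of 1271 bases and the 18 below one of 2276 bases, beside 1756 bases for all 75. What part length has in these directions was not tested.

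The synthesis of sterols and fatty acids supplies membranes to the dividing embryo. Genes of sterol and fatty acid synthesis lay below both controls in 14 of 35 cases and above in 1 (40.0% and 2.86%, beside 19.2% and 27.6% of all genes), with medians of -0.31 and -0.28 log2 relative to all genes in replicates 1 and 2. Fdft1, squalene synthase, was at 136 and 179 TPM in the controls and 80.6 and 86.3 TPM after CX-5461. Msmo1, a sterol demethylation enzyme, was at 196 and 199 TPM in the controls and 89.7 and 139 TPM after CX-5461, and Scd1, which desaturates fatty acids, at 80.4 and 78.5 TPM in the controls and 57.2 and 51.3 TPM after CX-5461. Srebf2, the factor that drives the pathway, overlapped. Glycolysis and hypoxia genes lay above in 8 and below in 6 of 33 cases (24.2% and 18.2%, beside 27.6% and 19.2% of all genes), with Tpi1, triosephosphate isomerase, at 213 and 122 TPM in the controls and 61.4 and 83.4 TPM after CX-5461 and the cytokine Mif at 668 and 653 TPM in the controls and 1256 and 1077 TPM after CX-5461.

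Translation factors lay below both controls in 19 of 44 cases and above in 7 (43.2% and 15.9%, beside 19.2% and 27.6% of all genes). The same counts were 14 and 1 of 38 for proteasome subunits (36.8% and 2.63%), 10 and 7 of 51 for lysosome and autophagy genes (19.6% and 13.7%) and 12 and 9 of 53 for splicing factors (22.6% and 16.98%). The proteasome median relative to all genes was -0.61 log2 in replicate 1 and -0.11 in replicate 2, and that of the translation factors -0.48 and -0.12, so that both lay lower mainly in replicate 1. Lysosome and autophagy genes had medians of -0.45 and -0.01, and splicing factors of 0.03 and -0.15. Eif4a1, the helicase that opens mRNA leaders, was at 246 and 222 TPM in the controls and 112 and 147 TPM after CX-5461. Eif4g3, a scaffold of the initiation complex, was at 4.17 and 2.34 TPM in the controls and 8.49 and 7.07 TPM after CX-5461. The abundant proteasome subunit Psmb6 overlapped between the groups (1779.6 and 1525 TPM in the controls and 1652 and 1707 TPM after CX-5461). Tfe3, a factor for lysosomal genes, was at 3.04 and 1.65 TPM in the controls and 6.8 and 4.96 TPM after CX-5461, and Sf3b5, a small splicing factor subunit, at 57.5 and 60.9 TPM in the controls and 89.8 and 89.4 TPM after CX-5461.

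Cell cycle genes did not point 1 way. S phase genes lay below both controls in 15 of 46 cases and above in 7 (32.6% and 15.2%, beside 19.2% and 27.6% of all genes), and genes of mitosis above in 14 of 51 and below in 6 (27.5% and 11.8%). In replicates 1 and 2 the medians relative to all genes were -0.39 and -0.11 log2 for S phase and -0.32 and 0.11 for mitosis. With replicate 2 alone 41.3% of the S phase genes lay above both controls and 39.1% below. For mitosis these shares were 58.8% and 13.7%, and for all genes 42.7% and 29.3%. Prim1, the primase subunit, was at 60.4 and 76.3 TPM in the controls and 27.3 and 40.5 TPM after CX-5461, and Pcna, the sliding clamp, was at 385 and 381 TPM in the controls and 247 and 312 TPM after CX-5461. Cdk1, the kinase that starts mitosis, was at 155 and 128 TPM in the controls and 222 and 267 TPM after CX-5461. In Prim1 and Pcna both treated values lay under both controls, and in Cdk1 over them. Replication-dependent histone genes, whose mRNAs carry no poly(A) tail, lay above both controls in 20 of 47 cases and below in 2 (42.6% and 4.26%, beside 27.6% and 19.2% of all genes). Their median relative to all genes was 0.61 log2 in replicate 1 and -0.02 in replicate 2, and with replicate 2 alone 21 lay above and 12 below (44.7% and 25.5%, beside 42.7% and 29.3% of all genes), near the share of all genes. Hist1h4k was at 1.42 and 1.53 TPM in the controls and 3.85 and 3.74 TPM after CX-5461 and Hist1h1c, a linker histone, at 4.02 and 4.66 TPM in the controls and 8.07 and 7.25 TPM after CX-5461.

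Genes of the interferon response and RNA sensing, of which 16 of 38 passed the filter, lay above both controls in 7 cases and below in 1 (43.8% and 6.25%, beside 27.6% and 19.2% of all genes). Their median relative to all genes was 0.57 log2 in replicate 1 and 0.18 in replicate 2. With replicate 2 alone 7 lay above and 2 below (43.8% and 12.5%, beside 42.7% and 29.3% of all genes), the share above near that of all genes. Over the group means the median was 0.36 log2, and 0.17 when the filter on low levels was left out. Oasl2, an interferon-stimulated relative of oligoadenylate synthetases, was at 4.2 and 2.02 TPM in the controls and 8.79 and 8.62 TPM after CX-5461. Tap1, the peptide transporter that loads class I molecules and also a p53 target, was at 2.96 and 3.42 TPM in the controls and 5.5 and 5.69 TPM after CX-5461, and B2m, their light chain, was at 161 and 214 TPM in the controls and 291 and 294 TPM after CX-5461. Oas1a lay lower (6.44 and 8.38 TPM in the controls and 1.9 and 4.19 TPM after CX-5461). Of the remaining lists, 4 of 21 members of the cumulus and oviduct list were tested. Only Hba-a1, a blood marker that this list also holds, lay outside the range of the controls in both treated libraries. Of 26 fibroblast genes 1 was tested, Vim (1.97 and 1.07 TPM in the controls and 3.6 and 1.23 TPM after CX-5461).

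**Figure D5:**
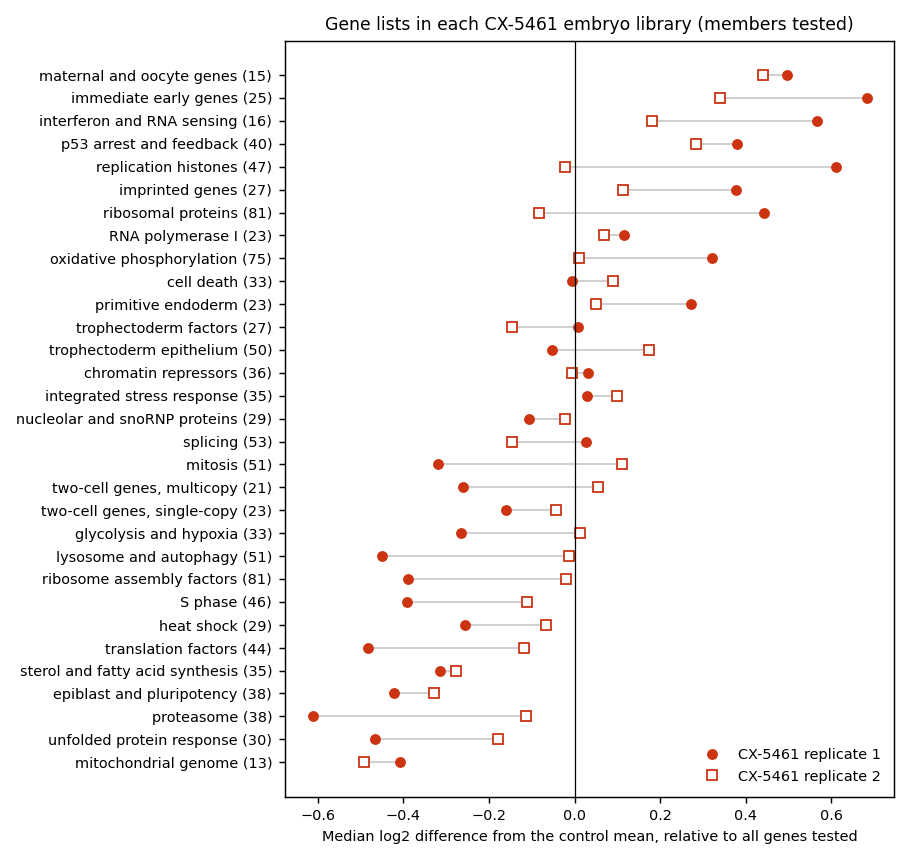
Median log2 difference of each gene list with at least 10 members tested from the control mean, relative to the median of all genes tested, with a point for each CX-5461 library (filled circles replicate 1, open squares replicate 2) and the number of members tested in brackets. Both libraries lie well to the right for the maternal, immediate early and p53 lists and well to the left for the mitochondrial genome, epiblast and sterol lists, while ribosomal proteins (0.44 and -0.08), replication histones (0.61 and -0.02) and the proteasome (-0.61 and -0.11) rest mainly on replicate 1.

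The embryo values were set beside those of CX-5461 against control in the ES cells of the series, which share no library with the embryos. Of the 216 genes clearly higher in embryos 168 were tested in ES cells, and 122 of these (72.6%) were called higher there (limma, adjusted p under 0.05) and 7 (4.17%) lower. The background was 37.3% higher and 13.6% lower among the 11839 genes tested in both tables. Taken from the other side, 2.76% of the 4418 genes called higher in ES cells were clearly higher in embryos, beside 1.42% of all genes tested in both. Of the 37 genes clearly lower in embryos 29 were tested in ES cells, of which 4 (13.8%) were called lower and 5 (17.2%) higher.

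Among genes high in both systems, the ES log2 fold changes were 1.97 for Cdkn1a, 2.75 for Btg2, 3.95 for Ces2e, 4.25 for Ms4a10, 3.79 for Nkx2-9 and 3.49 for Tnfrsf18. Hspb1 was an exception, at -0.13 ± 0.10 in ES cells and 2.34 ± 0.34 in embryos. Tdgf1 and Xbp1 differed by -0.25 ± 0.10 and -0.14 ± 0.11 log2 in ES cells and by -2.44 ± 0.33 and -1.52 ± 0.28 in embryos. Phlda2 had opposite signs, at -1.56 ± 0.20 in ES cells and 3.43 ± 0.59 in embryos. Whether the systems differ in any of these genes was not tested, since the tables were normalized separately.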

How the data were processed

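RNA-seq libraries of mouse embryos and ES cells were analysed from tables of gene TPM as deposited. Per the study's methods, the authors trimmed reads with Trimmomatic, aligned them with HISAT2 to mm10, removed duplicates with Picard and computed TPM with StringTie on GENCODE annotation, from uniquely mapped reads. TPM values hold no read counts, so that depth per library is unknown and no count model was used. All columns mapped to a sample by title.

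Each column was scaled to a total of 1000000, because 1 embryo control was deposited with a lower sum. Gene IDs were matched to GENCODE M21 (53620 of 53715). Genes with at least 1 TPM in at least 2 of the 4 embryo libraries were tested on log2(TPM + 1) with limma 3.58.1 in R 4.3.3 (empirical Bayes with an intensity trend, two-sided, Benjamini-Hochberg adjustment over all genes tested, threshold 0.05), and fold changes are on that scale, which understates the change of low genes. The 8 ES libraries were fitted the same way in their own table. A script was tested on simulated data first. Separation is the gap between the nearest libraries of the groups, clear at 1 log2 unit or more. The 34 gene lists, the members and the tests were chosen with earlier results of these data known. Named genes were the 4 markers of the 2-cell stage with Pou5f1, and 20 lineage, nucleolar and p53 genes. Added to these were the 12 widest separations in each direction with a group mean of at least 5 TPM (called genes first). Up to 3 members of each list were named by call, then by separation of at least 0.5 log2, else the 2 most abundant. Genes beyond these were chosen after their values were seen. Promoters are from RefSeq. Alternatives were another pseudocount, filter, scaling, prior and block, and each library left out. Some genes are not reported here.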

Additional observations from a re-analysis of the deposited data

Results flagged for a closer look

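For 29 of the genes picked by the naming rule or described in the text, both treated embryo libraries and both treated ES libraries lay on opposite sides of their own controls. Some of these genes were chosen after their values were seen. Of all genes tested in embryos 27.6% lay above both controls and 19.2% below. The share of all genes on opposite sides in the 2 systems was not counted, so that 29 is not read as more than usual. The values are log2 fold changes of CX-5461 against control on the log2(TPM + 1) scale, and the difference between embryos and ES cells was not tested for any of them. Chaperones and folding enzymes of the endoplasmic reticulum lay lower in embryos and higher in ES cells: Hspa5 (-1.19 in embryos and 1.17 in ES cells), Canx (-0.53 in embryos and 1.18 in ES cells), Hsp90b1 (-0.53 in embryos and 0.56 in ES cells), Dnajc3 (-0.34 in embryos and 0.80 in ES cells), Calr (-0.28 in embryos and 0.38 in ES cells), Pdia6 (-0.94 in embryos and 0.24 in ES cells) and Pdia4 (-0.91 in embryos and 0.23 in ES cells). The same held for Ddb2 (-0.63 in embryos and 0.50 in ES cells), Dusp6 (-0.66 in embryos and 1.77 in ES cells), Ephx2 (-1.78 in embryos and 0.59 in ES cells), Pdgfra (-0.73 in embryos and 2.09 in ES cells), Msmo1 (-0.82 in embryos and 0.02 in ES cells), Tssc4 (-0.40 in embryos and 0.64 in ES cells), Gulp1 (-1.64 in embryos and 1.67 in ES cells), mt-Co1 (-0.70 in embryos and 0.16 in ES cells) and Gm14419 (-4.74 in embryos and 1.54 in ES cells). The opposite held, higher in embryos and lower in ES cells, for Nhp2 (0.24 in embryos and -0.51 in ES cells), Phlda2 (3.43 in embryos and -1.56 in ES cells), Cdk1 (0.79 in embryos and -0.65 in ES cells), Mt1 (0.56 in embryos and -0.77 in ES cells), Cox4i1 (0.80 in embryos and -0.34 in ES cells), Trib3 (0.85 in embryos and -0.33 in ES cells), Polr2f (0.70 in embryos and -0.51 in ES cells), Mif (0.82 in embryos and -0.67 in ES cells), Rps29 (0.94 in embryos and -0.47 in ES cells), Rpl39l (0.94 in embryos and -1.11 in ES cells), Dppa3 (0.73 in embryos and -1.44 in ES cells), Fbl (0.54 in embryos and -0.79 in ES cells) and Ifitm2 (0.88 in embryos and -0.60 in ES cells). With 2 libraries a group, no library could be tested as an outlier within its group.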

How the results depend on the processing

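The number of genes called by limma and the number of clear separations both rested on the settings. Without any filter 0 genes were called higher (Gm26712 at adjusted p = 0.208; 1520 genes at an unadjusted p under 0.05). With a minimum of 5 TPM, 3 were called higher and 1 lower, with 133 clear separations in the higher direction. With a minimum on the mean, 1 was called lower, and with a prior without trend 2. The unscaled values as deposited gave 438 calls higher and 31 lower and 13 clear separations lower, and moved the median of all genes from 0.048 to 0.31 log2. A pseudocount of 0.1 gave 456 and 94 clear separations. Median-ratio and quantile scaling moved that median to -0.06 and -0.03, and the higher share of clear separations from 85.4% to 76.3% and 74.9%. The replicate block gave 80 calls higher and 12 lower, though the labels do not pair the libraries and same-numbered deviations correlated at 0.054. Leaving out 1 library in turn gave 15 to 1130 calls higher and 3 to 1578 lower, and 241 to 684 and 73 to 729 clear separations. The highest of each came without CX-5461 replicate 2, when the lone treated library is assumed to vary as the controls do. Without replicate 1 the calls were 144 and 46, with 108 clear separations lower, without control replicate 1 15 and 5, and without control replicate 2 48 and 3. Of the 34 list medians 19 kept their sign in all the 14 alternatives that gave a value. The ribosomal protein median turned to -0.08 without CX-5461 replicate 1. Of 2254 gene values under alternatives, 252 passed the threshold only there, 171 moved by more than the replicate SD and 0 changed sign among called or clearly separated genes. The causes were not tested. Depth is unknown, and 2 libraries a group limit every value here.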

Other observations

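Other genes that lay clearly higher in both treated embryo libraries, chosen after their values were seen, include Gpx3, a secreted glutathione peroxidase, at 35.3 and 35.7 TPM in the controls and 143 and 197 TPM after CX-5461. Ada, adenosine deaminase, was at 7.52 and 9.37 TPM in the controls and 43.8 and 41.6 TPM after CX-5461. Mlkl, the executor of necroptosis, was at 3.23 and 3.21 TPM in the controls and 15.3 and 14.8 TPM after CX-5461, and S100a6, a calcium-binding protein, was at 12.5 and 14.3 TPM in the controls and 134 and 50.2 TPM after CX-5461. Abcb1b, a drug efflux pump, was at 2.89 and 4.54 TPM in the controls and 34.4 and 13.9 TPM after CX-5461. In each of these 5 genes both treated libraries lay above both controls, and none passed the limma test. The zinc-binding metallothionein Mt1 was at 6818 and 7808 TPM in the controls and 13043 and 8908 TPM after CX-5461, with the higher treated value in CX-5461 replicate 1.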
